A study of Arabidopsis thaliana with 4 samples.

Results

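The AP2/ERF genes described here are 87 of the 27554 genes of a ribosome footprint table. They were chosen by annotation: 81 are annotated as Integrase-type DNA-binding superfamily proteins, a name given to proteins with an AP2 DNA-binding domain, and 6 as ethylene responsive element binding factors. The group VII factors of oxygen sensing, DREB2A and ABI4 were left out by the rule. A further 52 genes of the family, among them the CBF genes and most cytokinin response factors, carry other annotations and are used only for comparison. Of the 87 genes, 83 were placed in published subgroups by their AGI codes and 4 were in no list.

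The assay was ribosome profiling, which counts the mRNA fragments left under ribosomes after nuclease digestion, and it was run on whole 6-day-old Arabidopsis thaliana seedlings. The 2 line 5 libraries came from seedlings that overexpress ClpD in the wild-type background, ClpD being a chloroplast chaperone of the Clp protease system. The submitters call the overexpression constitutive and found ClpD precursor protein building up by Western blot. The 2 WT libraries came from wild-type seedlings without that overexpression. The promoter of the transgene is not given in the sources used here, and with line 5 as the single overexpression line, what ClpD does and what else is peculiar to that line cannot be told apart. The submitters set out to separate genes that respond through transcription from those that respond through translation. A footprint count follows both mRNA level and ribosome occupancy, and matching RNA-seq was not analysed here. In whole seedlings, fewer cells of a type and less RNA per cell cannot be told apart.

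Total counts were 42291527 and 38990360 in line 5 and 29772406 and 27260818 in WT. ClpD itself (AT5G51070, listed as ERD1) had 3111 and 3301 CPM (counts relative to library size after edgeR's TMM scaling) in line 5, against 167 and 175 CPM in WT, as the label says. Some markers of the tissue were present. The root β-glucosidase PYK10 had 997 and 985 CPM in line 5 and 806 and 1025 CPM in WT. The shoot meristem receptor gene CLV1 had 53.9 and 60.4 CPM in line 5 and 62.6 and 54.3 CPM in WT. Each was the highest of its list, of which 4 of 10 root and 5 of 7 shoot meristem genes were tested. Others were low: the root gene BGLU22 had 0.33 and 0.187 CPM in line 5 and 0.317 and 0 CPM in WT. The meristem gene STM had 2.02 and 2.48 CPM in line 5 and 2.93 and 2.19 CPM in WT. Whether replicates were grown as separate cultures is not stated by the labels, so the spread that p-values measure is that among these 4 samples, and it may be technical.

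AP2/ERF factors bind DNA through a domain of one protein family that is mostly found in plants. The DREB branch is known for binding the dehydration and cold element of stress genes, the ERF branch for binding the GCC box of ethylene and jasmonate target genes, and the AP2 branch, with a pair of domains, for organ growth and floral timing. Many ERF and DREB genes are early response genes, whose mRNA changes quickly upon wounding, touch, cold or a hormone, and some members repress their targets through an EAR motif.

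Of the 87 AP2/ERF genes, 60 had enough counts to be tested, and 3 of these were higher and 9 lower in line 5 (edgeR's quasi-likelihood test, Benjamini-Hochberg adjusted p under 0.05). Among all 18737 genes tested, 6.72% were called higher and 8.72% lower, beside 5% and 15% of the tested AP2/ERF genes. The higher share is thus near the background and the lower share above it, a difference that was not tested. The median log2 fold change of the 60 genes was -0.22, against 0.00 for all genes tested, and 39 of the 60 had a negative value. That median was 0.02 without WT replicate 2. Both line 5 libraries lay below both WT libraries for 24 of the 60 genes and above them for 15. The same order held for 33.4% and 34.7% of all genes tested.

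With a library left out, its group has 1 library, which is assumed to vary like the pair of the other group, so these p-values hold no spread of that group. Without line 5 replicate 1, the number of AP2/ERF genes called by edgeR was 0, with 15 at an unadjusted p under 0.05. Without line 5 replicate 2 it was also 0, with 13 at an unadjusted p under 0.05. None of the 12 genes changed direction in either case, and their folds moved by at most 1.44 times. The kept direction says little, as both line 5 libraries lay on one side of both WT libraries in each gene. The spread came from the WT pair, whose libraries lay further apart (SD of the log2 CPM difference 0.344 in line 5 and 0.512 in WT). Of all genes tested, 37 and 25 were then called higher and 14 and 3 lower. Without WT replicate 1, more AP2/ERF genes were called in each direction than with all libraries, and so were more of all genes tested. Every call made with all libraries was kept. Without WT replicate 2, more were likewise called in each direction, both of the AP2/ERF genes and of all genes tested. The calls of AT1G77200 and AT5G21960 were then lost. DESeq2 called 4 AP2/ERF genes higher and 12 lower, 11 of them shared with edgeR, and 7.82% and 11.2% of all genes. The authors' deposited table, which comes from the same libraries, gives an FDR under 0.05 to 10 of the 12 genes called by edgeR, with the same sign for all 12. For another 12 of the 60 genes tested, all negative with edgeR and not called, the log2 ratio in that table is positive. In every tested AP2/ERF gene the deposited ratio lay above edgeR's value, as in ERF4 (-0.46 against -0.71) and CRF11 (0.22 against -0.01). The number of genes with a negative value thus depends on which of the 2 analyses is used, and the reason was not tested. Among the 60 genes the deposited table gives an FDR under 0.05 to 4 higher and 11 lower genes, beside 7.56% and 11% of all genes tested here.

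**Figure D1:**
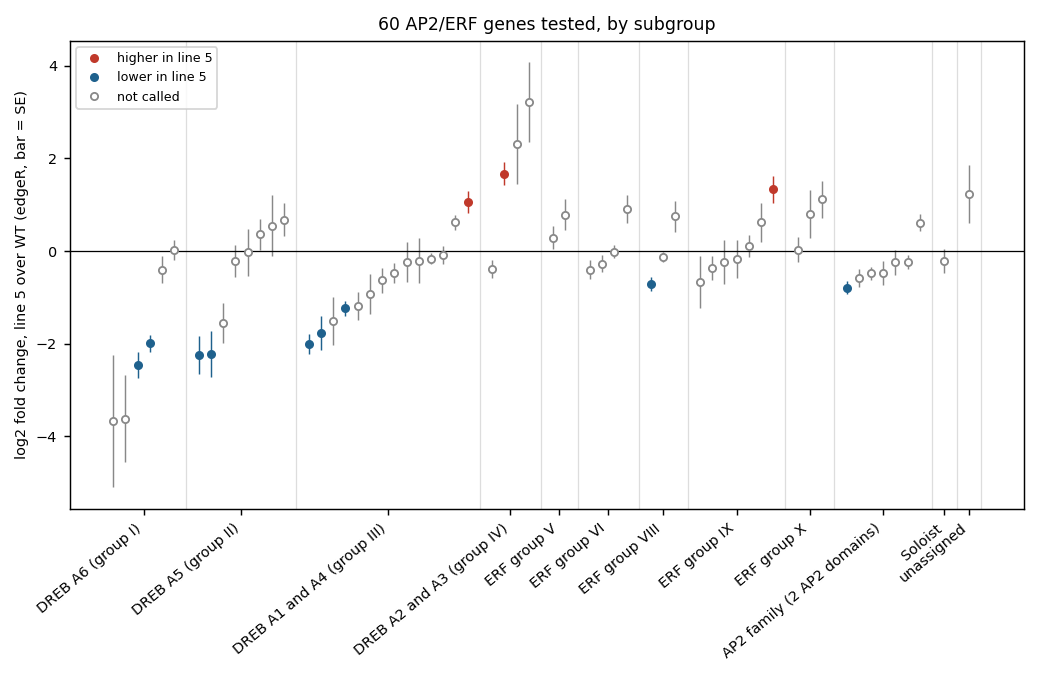
Log2 fold change of line 5 over WT (vertical axis, edgeR estimate, bars are SE) for each of the 60 AP2/ERF genes tested, arranged by subgroup along the horizontal axis. Filled red points mark the 3 genes higher in line 5, filled blue points the 9 lower, and open points those not called. Of the 9 lower genes, 7 are DREB genes of groups I, II and III. These groups hold 6, 8 and 14 of the 60 genes tested, and the difference in share was not tested.

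The share of all footprints on AP2/ERF genes did not separate the groups. It was 0.0792% and 0.0867% of the counts in line 5 and 0.0757% and 0.0965% in WT, with exact 95% binomial intervals no wider than 0.0953 to 0.0976, which leave out all but counting error. Line 5 averaged 0.0829% ± 0.00531 (SD, n = 2) and WT 0.0861% ± 0.0147 (SD, n = 2) (two-sided exact permutation test, p = 1, where 2 against 2 libraries cannot go below 0.333). ERF4, ERF2 and ERF-1 had the most counts of all.

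Levels between genes were compared per length, with the authors' deposited FPKM. ERF4 (AT3G15210), an EAR-motif repressor of ethylene and jasmonate responses, had the highest level, with 148 and 157 FPKM in line 5 and 193 and 228 FPKM in WT. ERF2 (AT5G47220), an activator of GCC-box genes, followed with 133 and 145 FPKM in line 5 and 85.6 and 130 FPKM in WT. ERF4 led in each of the 4 libraries, and ERF2 lay nearer to it in line 5 than in WT. AT5G51190, listed as ERF105 in the reference and known from cold responses, had 82.0 and 82.7 FPKM in line 5 and 47.5 and 107 FPKM in WT. ERF-1 (AT4G17500), AT1G22810 and the repressor gene ERF3 (AT1G50640) completed the 6 highest by the mean over all 4 libraries. Of these, 5 belong to groups VIII and IX, and AT1G22810 is a DREB gene of group II. The order differed by group: AT1G22190, with 72.4 and 83.5 FPKM in WT, exceeded ERF3 there, and AT5G61590 and ERF6 exceeded ERF3 in line 5. In all, 21 of the 87 genes had a mean FPKM of at least 10 and 36 had one under 1.

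**Figure D2:**
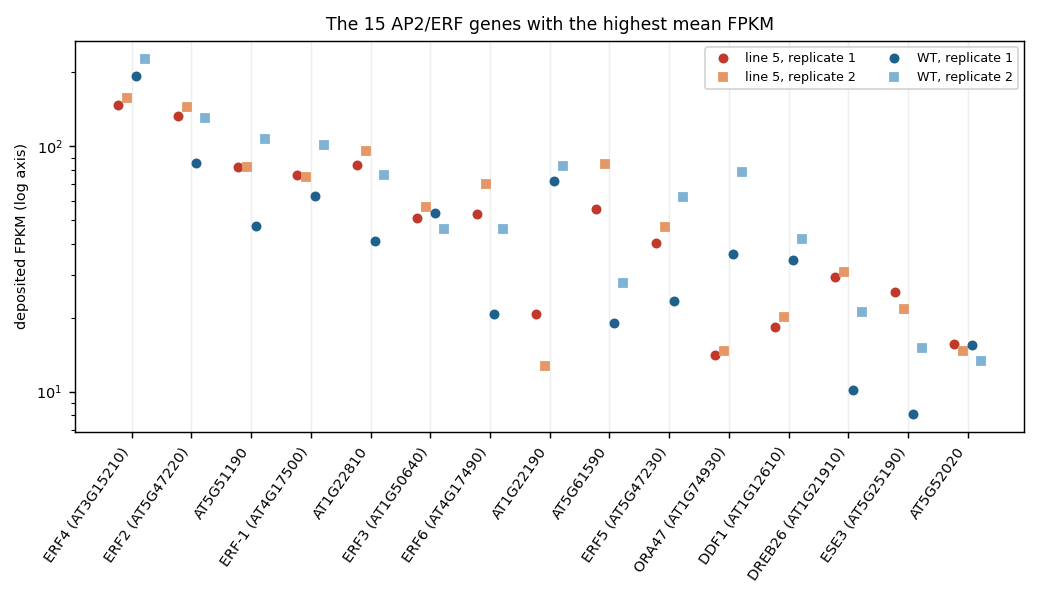
Deposited FPKM (log axis) of the 15 AP2/ERF genes with the highest mean, in rank order from the left, with 1 point per library and line 5 drawn left of WT. ERF4 leads with 148 and 157 FPKM in line 5 and 193 and 228 FPKM in WT, and AT1G22190, at rank 8, lies lower in both line 5 libraries than in both WT libraries.

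The DREB genes of group I (A6), relatives of the light- and ethylene-responsive factor RAP2.4, included the called gene with the smallest adjusted p. Of 6 tested, 2 fell and 0 rose. AT2G22200 had 2.99 and 2.41 CPM in line 5, against 11.7 and 9.86 CPM in WT. Both line 5 libraries were low and the groups did not overlap, at a 3.99-fold lower level (log2 fold change -1.99, SE 0.190, edgeR, adjusted p = 0.0146). AT1G22190, which the reference also lists under the synonym RAP2.4, had 15.8 and 9.46 CPM in line 5, against 62.2 and 76.9 CPM in WT. Its level was 5.49-fold lower (log2 fold change -2.46, SE 0.279, edgeR, adjusted p = 0.0165). The gene named RAP2.4 in the table (AT1G78080), which the annotation rule did not match, had 6.29 and 5.37 CPM in line 5, against 26.1 and 27.4 CPM in WT, and was also called lower (log2 fold change -2.20, edgeR, adjusted p = 0.00744). AT1G22190 and AT1G78080 are related in sequence, and how the authors divided shared reads was not tested.

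A pair of group I genes had larger fitted changes that edgeR did not call. ERF53 (AT2G20880), a drought-responsive factor, had 1.30 and 0.887 CPM in line 5, against 23.3 and 3.51 CPM in WT (log2 fold change -3.62, SE 0.940, edgeR, adjusted p = 0.0611). The groups did not overlap, but WT replicate 1 was far above WT replicate 2. The log2 fold change was -1.68 without WT replicate 1 and -4.40 without WT replicate 2, each called by edgeR, as the gene was by DESeq2 (adjusted p = 0.0173) and with an FDR of 0.021 in the authors' deposited table. AT4G28140 had 0.616 and 0.981 CPM in line 5, against 19.6 and 0.619 CPM in WT, so that only WT replicate 1 was high. Its log2 fold change of -3.67 (SE 1.43) became 0.36 without WT replicate 1. With WT replicate 2 left out instead it was -4.62, and edgeR called the gene (adjusted p = 0.000221). The other 2 tested genes, AT1G64380 and AT4G39780, had log2 fold changes of -0.40 and 0.03.

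Group II (A5) holds EAR-motif repressors and early stress genes. Of 8 tested, 2 fell and 0 rose. ORA47 (AT1G74930), an activator of jasmonate synthesis genes, had 8.12 and 8.29 CPM in line 5, against 23.7 and 54.8 CPM in WT. The line 5 libraries were close together and both WT libraries were higher but apart (log2 fold change -2.25, SE 0.410, edgeR, adjusted p = 0.0314). Without WT replicate 2 its log2 fold change was -1.52, and the call held. AT5G21960 had low levels throughout, 0.220 and 0.117 CPM in line 5 and 0.670 and 0.949 CPM in WT (log2 fold change -2.22, SE 0.491, edgeR, adjusted p = 0.0442). In counts these are 10 and 5 in line 5 and 19 and 23 in WT. AT1G22810 and DREB26 (AT1G21910), the most abundant of the group with ORA47, had log2 fold changes of 0.36 (SE 0.326) and 0.68 (SE 0.363) and were not called. Without WT replicate 2 both were called higher, at 0.94 and 1.36. AT1G19210 had 0.968 and 0.677 CPM in line 5, against 1.62 and 3.30 CPM in WT, without overlap (log2 fold change -1.56, SE 0.431), and was called lower by DESeq2 but not by edgeR (adjusted p = 0.0684). Its log2 fold change was -0.97 without WT replicate 2.

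Group III holds the A1 genes (CBF, DDF) and the A4 genes related to TINY, and was the largest subgroup. Of 14 tested, 3 fell, 1 rose and 12 had a negative log2 fold change. DDF1 (AT1G12610), a factor known for activating gibberellin breakdown under salt stress, had 11.3 and 12.2 CPM in line 5, against 24.0 and 31.1 CPM in WT (2.35-fold lower, log2 fold change -1.23, SE 0.162, edgeR, adjusted p = 0.0211). AT1G01250 had 0.924 and 0.934 CPM in line 5, against 3.95 and 3.51 CPM in WT, a 4.01-fold lower level with nearly equal replicates (log2 SE 0.210, edgeR, adjusted p = 0.0152). TINY2 (AT5G11590), named for its relation to the growth-restraining factor TINY, had 0.902 and 1.54 CPM in line 5, against 5.04 and 3.22 CPM in WT (log2 fold change -1.76, SE 0.367, edgeR, adjusted p = 0.0393). For all 3 genes the libraries of the groups did not overlap.

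The group III gene that rose was AT1G77200, with 2.66 and 2.73 CPM in line 5, against 1.48 and 1.11 CPM in WT (2.07-fold, log2 fold change 1.05, SE 0.238, edgeR, adjusted p = 0.0466). DESeq2 did not call it (adjusted p = 0.064). Its relative AT4G32800 had 7.68 and 8.59 CPM in line 5, against 5.68 and 4.87 CPM in WT, and missed the threshold (log2 fold change 0.62, SE 0.161, edgeR, adjusted p = 0.0605). DDF2 (AT1G63030), the close relative of DDF1, had 1.67 and 1.70 CPM in line 5, against 2.54 and 2.15 CPM in WT, and TINY (AT5G25810) had 0.682 and 0.934 CPM in line 5, against 1.30 and 0.536 CPM in WT. Neither was called. AT1G33760 had 3.92 and 2.57 CPM in line 5, against 4.90 and 13.5 CPM in WT, and was likewise called lower by DESeq2 and not by edgeR (2.82-fold lower, SE 0.519 on the log2 scale, adjusted p = 0.109). Its log2 fold change was -0.59 without WT replicate 2.

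The CBF genes, the best known A1 activators of the cold response, lie outside the annotation rule but bear on this subgroup. CBF1 (AT4G25490) had 4.62 and 7.80 CPM in line 5, against 17.7 and 27.8 CPM in WT (log2 fold change -1.87, edgeR, adjusted p = 0.0311). CBF2 (AT4G25470) had a log2 fold change of -1.60 and CBF4 (AT5G51990) one of -2.52, both called lower. DREB1A (AT4G25480), also known as CBF3, was at -1.23 and was not called (edgeR, adjusted p = 0.0755). Of 12 tested CBF target genes, including COR15A, COR47 and LTI78, 0 were called by edgeR or DESeq2 and 0 had an unadjusted p under 0.05. All 12 were lower in WT replicate 2 than in WT replicate 1, and their summed level was 2073 and 3100 CPM in line 5 and 5325 and 1843 CPM in WT. The list turned with the WT library: 4 were called higher without WT replicate 1 (median log2 fold change 0.65) and 7 lower without WT replicate 2 (median -1.20). COR15A had a log2 fold change of -1.51 with all libraries and one of 1.17 without WT replicate 1.

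Group IV, the A2 and A3 branch to which DREB2A belongs, had 4 tested genes, of which 1 rose and 0 fell. Its median log2 fold change was 1.99, and it was 2.65 without WT replicate 1 and 0.64 over the 2 genes that passed a minimum count of 30. AT1G75490 had 3.59 and 3.76 CPM in line 5, against 0.952 and 1.36 CPM in WT, a 3.19-fold higher level (log2 fold change 1.67, SE 0.247, edgeR, adjusted p = 0.0234). DREB2C (AT2G40340), a heat-inducible factor known to activate the heat shock factor gene HSFA3, had 27 and 83 counts in line 5, against 5 and 2 counts in WT. The ratio of summed counts scaled by library size was 9.36 (95% counting interval 4.40 to 23.8). It was 14.6 without line 5 replicate 1, 4.46 without line 5 replicate 2 and 15.1 without WT replicate 1. Both line 5 libraries were above both WT libraries but differed from each other, and edgeR did not call the gene (adjusted p = 0.0646), while DESeq2 did. DREB19 (AT2G38340) had 33 and 34 counts in line 5, against 8 and 0 counts in WT, a ratio of 4.99 (95% counting interval 2.39 to 12) that was not called (edgeR, adjusted p = 0.128) and was 2.69 without WT replicate 2. Without WT replicate 1, where WT is at 0 counts, it was at least 6.13 at a floor of 3 counts, and edgeR called the gene (adjusted p = 0.0129). AT3G57600, the fourth, had a log2 fold change of -0.39 (SE 0.198). AT2G40350, next to DREB2C on the chromosome, had 0 counts in every library.

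**Figure D3:**
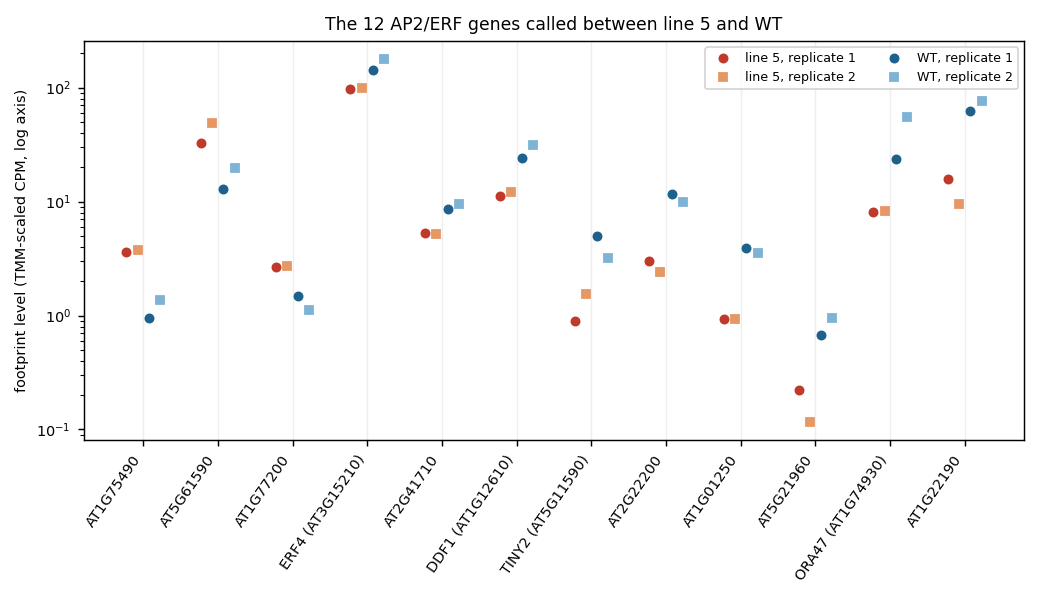
Footprint level (TMM-scaled CPM, log axis) in each library for the 12 AP2/ERF genes called between the groups, ordered from the largest increase on the left to the largest decrease on the right, with line 5 drawn left of WT. For each gene both line 5 libraries lie on one side of both WT libraries, as in AT1G22190 with 15.8 and 9.46 CPM in line 5 and 62.2 and 76.9 CPM in WT.

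In the ERF branch, group VIII holds the repressors with an EAR motif and the shoot and organ regulators ESR1, LEP and PUCHI. Of 3 tested, 1 fell and 0 rose. ERF4 had 96.5 and 100 CPM in line 5, against 142 and 179 CPM in WT, a 1.63-fold lower level (log2 fold change -0.71, SE 0.142, edgeR, adjusted p = 0.0372). ERF3 had 33.7 and 36.5 CPM in line 5, against 39.8 and 36.9 CPM in WT, and was not called (log2 fold change -0.13, SE 0.108). ESR1 (AT1G12980), a regulator of shoot regeneration, had 1.12 and 0.981 CPM in line 5, against 0.740 and 0.495 CPM in WT (log2 fold change 0.75, SE 0.339, not called). Of 7 genes of the same group that carry other annotations, edgeR called the repressor genes ERF7 and ERF8 lower, with log2 fold changes of -0.53 and -1.72. The other 5 were not called: ERF9 was at 1.18, ERF12 at 0.53, ERF10 at -1.44 and ERF11 at -0.72, and DRNL is given by its level. DRNL had 0.374 and 0.304 CPM in line 5, against 0.0705 and 0.0825 CPM in WT. Both WT values lie below the level of 3 counts, 0.106 and 0.124 CPM in these libraries.

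Group IX holds the activators of ethylene, jasmonate and stress genes. Of 7 tested, 1 rose and 0 fell. It was AT5G61590, listed in the reference as DEWAX, a repressor of cuticular wax genes, with 32.9 and 49.1 CPM in line 5, against 12.8 and 19.8 CPM in WT (2.52-fold, log2 fold change 1.33, SE 0.289, edgeR, adjusted p = 0.0428). The groups did not overlap, although the line 5 libraries differed. Of 17 tested genes of wax and cutin synthesis, its target pathway, GPAT8 rose and 0 fell, with 3 at an unadjusted p under 0.05. The sign of their median log2 fold change depended on the WT library. It was -0.02 with all libraries, 0.22 without WT replicate 1 and -0.22 without WT replicate 2. CER1, a wax alkane gene, had 118 and 129 CPM in line 5 and 140 and 104 CPM in WT (log2 fold change 0.02, SE 0.167).

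The other 6 group IX genes were not called, and 5 of them changed direction with the WT library left out. ERF5 (AT5G47230), an early stress factor, had 35.1 and 39.9 CPM in line 5, against 23.1 and 65.1 CPM in WT. AT5G51190 had 53.2 and 52.6 CPM in line 5, against 34.8 and 84.1 CPM in WT. In both genes the line 5 libraries lay between the WT libraries. ERF5 stood at a log2 fold change of -0.80 without WT replicate 1 and of 0.70 without WT replicate 2, and AT5G51190 had -0.67 and 0.61. TDR1 had -1.32 and 0.48, ERF-1 had -0.71 and 0.09, and ERF2 had -0.19 and 0.51, while ERF6 was positive in both cases, at 0.13 and 1.38. Over all 7 tested genes, edgeR called 1 higher and 4 lower without WT replicate 1, and 5 higher and 0 lower without WT replicate 2. Neither fit holds the spread between the WT libraries. ERF6 (AT4G17490), an oxidative stress and growth regulator, had 43.6 and 56.5 CPM in line 5, against 19.2 and 45.8 CPM in WT. ERF-1 had 59.9 and 57.3 CPM in line 5, against 55.3 and 95.8 CPM in WT. In both genes WT replicate 2 was well above WT replicate 1. ERF2 had 94.7 and 101 CPM in line 5, against 68.7 and 112 CPM in WT. TDR1 (AT3G23230) had 3.34 and 3.04 CPM in line 5, against 2.29 and 7.96 CPM in WT. All 6 had overlapping groups, and each was lowest in WT replicate 1.

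In the smaller ERF groups V, VI and X, edgeR called 0 genes. In group V, related to the cuticle regulators SHINE, ESE3 (AT5G25190) had 13.7 and 11.5 CPM in line 5, against 4.90 and 9.78 CPM in WT (log2 fold change 0.78, SE 0.334). SHN2 (AT5G11190) had a log2 fold change of 0.29. In group VI, the cytokinin response factors, CRF10 (AT1G68550) had 2.16 and 2.22 CPM in line 5, against 1.45 and 0.866 CPM in WT (log2 fold change 0.91, SE 0.303, adjusted p = 0.101), and was called higher without WT replicate 1. CRF7, CRF8 and CRF11 had log2 fold changes of -0.27, -0.40 and -0.01. In group X, ABR1 (AT5G64750), named as a repressor of abscisic acid responses, had 16.3 and 22.9 CPM in line 5, against 12.4 and 5.53 CPM in WT. Its log2 fold change of 1.12 (SE 0.401) missed the threshold with edgeR (adjusted p = 0.117) and passed it with DESeq2, and it was 1.82 without WT replicate 1. Over these 3 groups 0 of 2, 1 of 4 and 1 of 3 genes had an unadjusted p under 0.05, and DESeq2 called ABR1 alone.

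In the AP2 branch, which acts in organ growth, lipid synthesis and floral timing, 1 of 7 tested genes fell and 0 rose, and 6 had a negative log2 fold change. AT2G41710 had 5.32 and 5.18 CPM in line 5, against 8.57 and 9.57 CPM in WT (1.72-fold lower, log2 fold change -0.79, SE 0.143, edgeR, adjusted p = 0.0317). ANT (AT4G37750), which promotes organ growth, had 10.1 and 9.53 CPM in line 5, against 14.7 and 12.7 CPM in WT, and did not pass (log2 fold change -0.48, SE 0.133, edgeR, adjusted p = 0.0683). SMZ (AT3G54990) and SNZ (AT2G39250), repressors of flowering, had log2 fold changes of -0.58 and -0.48. The gene with a positive value was the floral homeotic gene AP2 (AT4G36920), with 12.1 and 12.7 CPM in line 5, against 9.38 and 6.81 CPM in WT (log2 fold change 0.61, SE 0.185, edgeR, adjusted p = 0.0828). WRI1, an activator of fatty acid synthesis genes, had a log2 fold change of -0.23, and WRI4 one of -0.24. The single Soloist gene, AT4G13040, had 7.63 and 7.85 CPM in line 5 and 6.80 and 11.2 CPM in WT.

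The AP2/ERF genes differed more between the WT libraries than most genes did. The median absolute log2 difference between the WT libraries was 0.60 over the 60 genes, against 0.21 over all genes tested. Between the line 5 libraries it was 0.17, against 0.14. The median level of the 60 genes was 6.46 CPM, against 11.5 CPM for all genes tested, and the part of this in the difference was not tested. All 7 tested genes of group IX and all 8 of group II were higher in WT replicate 2, with a median log2 difference of 1.25 and 1.00. ERF53, AT4G28140 and ABR1 were instead higher in WT replicate 1, and the other subgroups with over 3 tested genes held genes of both directions.

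**Figure D4:**
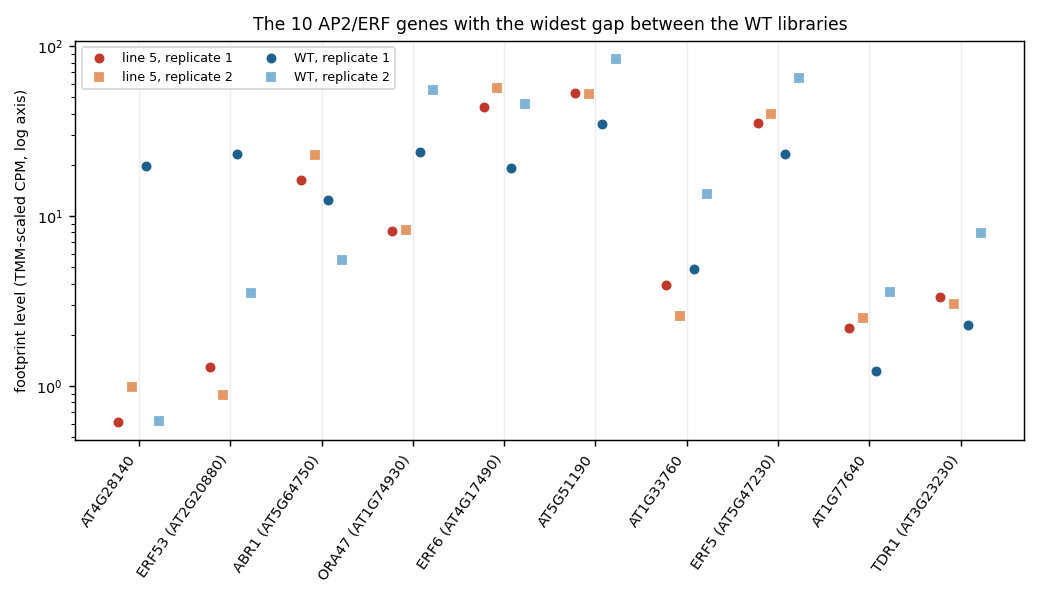
Footprint level (TMM-scaled CPM, log axis) in each library for the 10 AP2/ERF genes with the widest difference between the WT libraries among those with a mean of at least 1 CPM, ordered from higher in WT replicate 1 on the left to higher in WT replicate 2 on the right. AT4G28140 had 0.616 and 0.981 CPM in line 5 and 19.6 and 0.619 CPM in WT, and ERF5, with 35.1 and 39.9 CPM in line 5 and 23.1 and 65.1 CPM in WT, shows line 5 between the WT libraries.

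Markers of the wound and touch response also differed between the groups. Of 18 early wound, touch and handling genes, 7 fell in line 5, all 18 had a negative log2 fold change with all libraries, and 13 were higher in WT replicate 2 than in WT replicate 1. Their summed level was 2951 and 2942 CPM in line 5, against 3224 and 4612 CPM in WT, with none at 0. The calcium sensor gene CML38 fell 2.09-fold and the jasmonate repressor genes JAZ5 and JAZ7 fell 1.99-fold and 2.58-fold. CML38 and JAZ5 were higher in WT replicate 1 (186 against 171 CPM and 78.1 against 69.9 CPM). JAZ7 was higher in WT replicate 2 (29.3 against 21.4 CPM). Without WT replicate 1, 16 of the 18 were called lower (median log2 fold change -0.80). Without WT replicate 2, 8 were called lower (median -0.18), and CAF1a, TCH4, TCH3 and CZF1 had positive values. The part of this response in the levels of ORA47, ERF4 or the group IX genes was not tested. Clock genes also differed: of 12 tested, the morning genes CCA1, LHY, RVE1, RVE8 and PRR9 fell and the evening gene ELF4 rose with edgeR. DESeq2 called 5 of the 12 higher and 5 lower. The clock genes also differed within line 5. Their median absolute log2 difference was 1.02 between the line 5 libraries, against 0.14 over all genes tested. Between the WT libraries it was 0.38, against 0.21. CCA1 had 41.8 and 18.5 CPM in line 5, against 147 and 172 CPM in WT, and LHY had 12.9 and 2.57 CPM in line 5, against 75.6 and 127 CPM in WT. The log2 fold change of LHY was -5.30 without line 5 replicate 1 and -2.97 without line 5 replicate 2, that of CCA1 -3.10 and that of RVE8 -2.98 without line 5 replicate 1, and that of RVE1 -1.93 without WT replicate 2. The part of the clock in the DREB levels was not tested.

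Seed and embryo markers were low. Their summed level was 13.7 and 5.91 CPM in line 5, against 31.8 and 34.7 CPM in WT, with 2 of 12 at 0 counts. All 8 tested had a negative log2 fold change (median -1.86). The oil body gene OLEO4 was the 1 that edgeR called lower, and DESeq2 called 3 lower. Of 10 root genes 4 were tested and SCR fell, while 0 of 5 tested shoot meristem genes were called by edgeR or DESeq2 or had an unadjusted p under 0.05.

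Upstream of the ERF genes lie ethylene synthesis and perception. Of 12 tested synthesis genes, edgeR called 5 higher and 0 lower and DESeq2 5 higher and 1 lower. Those called by edgeR were the ACC synthase genes ACS4, ACS5 and ACS8, the ACC oxidase gene ACO1 and EFE (AT1G05010). ACS8 had 31.5 and 34.6 CPM in line 5, against 9.24 and 9.53 CPM in WT (3.52-fold, edgeR, adjusted p = 0.00827). ACS6, the wound-responsive ACC synthase, had 143 and 115 CPM in line 5, against 209 and 328 CPM in WT, and missed edgeR's threshold (adjusted p = 0.0502). It was called lower without WT replicate 1 and without WT replicate 2. Of 12 tested signalling genes, 3 rose and 0 fell. The receptor gene ETR2 had 7.24 and 7.61 CPM in line 5, against 1.16 and 1.24 CPM in WT (6.18-fold, edgeR, adjusted p = 0.00938). The receptor gene ERS1 rose 2.12-fold and CTR1, the kinase that holds the pathway off, rose 2.01-fold. The transcription factor EIN3, which activates ERF genes, was at 128 and 144 CPM in line 5 and 127 and 121 CPM in WT, not called (log2 fold change 0.14).

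Downstream lie defence genes of jasmonate and ethylene that ERF activators bind. Of 7 genes, 4 were tested and 3 fell. The defensin gene PDF1.2 had 0 and 1 counts in line 5, against 71 and 38 counts in WT, so that WT exceeded line 5 by a ratio of 183 (32.1 to 7291 as its 95% counting interval). PDF1.3 had 0 and 0 counts in line 5, against 21 and 38 counts in WT, at least 33.0-fold lower at a floor of 3 counts over the group, while the exact 95% counting interval of the ratio starts at 26. The defensin genes are near-identical, so their reads may be split. PR4 had 4.00 and 5.23 CPM in line 5, against 11.6 and 11.4 CPM in WT (2.50-fold lower, edgeR, adjusted p = 0.0214). The activators named for these targets went both ways outside the annotation rule: ERF1 (AT3G23240) was lower (log2 fold change -2.06) and ORA59 (AT1G06160) higher (1.62). Without line 5 replicate 1 or 2, edgeR called 0 of the ethylene synthesis, signalling and defence genes named here.

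Of the 52 family genes outside the annotation rule, 46 were tested, with 6 (13%) higher and 9 (19.6%) lower. Among all genes tested these shares were 6.72% and 8.72%, and among the tested AP2/ERF genes of the rule 5% and 15%. The median log2 fold change of the 46 genes was -0.16, against -0.22 for those of the rule. The 87 genes and these 52 thus had medians close to each other, while both shares were larger among the 52. The differences between the 2 sets and from all genes were not tested. The cytokinin response factors CRF3 and CRF4 and the RAV genes TEM1 and EDF3 were among those called higher, and RRTF1, a redox-responsive factor of group X, among those called lower.

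The 27 AP2/ERF genes that were not tested had at most 16 counts in a library. Of these, 10 had 0 counts in every library, among them the root stem cell regulator PLT1 and the lateral organ gene PUCHI, and 17 had at least 1 count. The 10 were not detectable at this depth, where a count of 0 allows up to 3 counts in a library, or between 0.0660 and 0.124 CPM. AT5G07310, listed as ERF115 in the reference, had 8 and 16 counts in line 5 and 3 and 2 counts in WT, and SHN1, the wax inducer, had 9 and 2 counts in line 5 and 0 and 2 counts in WT.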

How the data were processed

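The authors deposited 1 table for the series. Per the file headers it holds, for each gene, the count and the FPKM in every library, group means of FPKM and the authors' comparison as log2 ratio, p-value and FDR. fastp, Bowtie2, STAR, RSEM, DESeq2 and the TAIR10 build are named in the submitters' processing notes, with no versions. Per the labels' protocols, lysates contained cycloheximide and were digested with RNase I. How strand and shared reads were handled is not given in the sources used here.

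The deposited counts are whole numbers and were tested with edgeR 4.0.16 in R 4.3.3: filterByExpr with a minimum count of 10, TMM, a quasi-likelihood fit on group alone over the 18737 genes kept, two-sided, Benjamini-Hochberg adjusted p under 0.05. SE is the absolute log2 fold change over the square root of its F statistic. Rows without a gene identifier, 0.0145% to 0.0340% of a library, were left out. Replicates were not copies of one library: chi-square over its degrees of freedom was 22.4 in line 5 and 33.6 in WT. For genes with 3 counts or fewer in a library, ratios of summed counts with exact binomial 95% intervals stand in for fitted folds.

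Alternatives were DESeq2 1.42.0, its size factors in edgeR, other filters, replicate blocks and leaving out each library. The members and lists were chosen with earlier results of these data known. The naming rule took all called members, up to 2 per subgroup by p, the 6 highest by FPKM, the 4 largest changes not called and up to 3 genes of a related list. Other genes, such as ERF5, TDR1, DDF2, AP2, ACS6 and LHY, were named after their values were seen. The RefSeq table of TAIR10.1 listed all 87 members.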

Additional observations from a re-analysis of the deposited data

How the results depend on the processing

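Over the alternatives run, none of the 12 called AP2/ERF genes changed direction. In each of the 12, both line 5 libraries lay on one side of both WT libraries, so this outcome was nearly fixed in advance. The 3 higher and 9 lower genes became 3 and 9 with DESeq2's size factors, 4 and 12 with DESeq2, 4 and 11 without a filter and 3 and 8 with a minimum count of 30. With a library left out, the higher genes ranged from 0 to 9 and the lower from 0 to 18, all genes higher from 25 to 2197 and all genes lower from 3 to 2904, and the median log2 fold change of the AP2/ERF genes from -0.28 to 0.02. The difference in the share of counts, -0.00316 percentage points, ranged from -0.0135 to 0.00721. Of the tested AP2/ERF genes, 9 had the opposite sign without WT replicate 1 and 9 without WT replicate 2, all of them not called with all libraries. Without WT replicate 2, ERF5 (0.70) and AT5G51190 (0.61) were called with the opposite sign, against -0.80 and -0.67 without WT replicate 1. COR15A turned to 1.17 without WT replicate 1 and was -2.39 without WT replicate 2. The causes were not tested.

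Same-numbered libraries deviated in opposite directions (correlation -0.117), and nothing in the labels pairs them. With the replicate number as a block, 1 AP2/ERF gene was higher and 4 lower, and 286 and 457 of all genes. With the numbers crossed between groups, chosen after seeing the data, these were 5 and 11, and 1530 and 2067. Genes with few counts limit what can be seen: 27 of 87 could not be tested. The promoter motif shares were not run.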
